A study of Mus musculus with 6 samples.

Results

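The genes of MHC class II presentation were examined on 6 expression arrays of flow-sorted megakaryocyte progenitors. The group comprised 10 listed genes: H2-Aa, H2-Ab1, H2-Eb1, H2-DMa, H2-DMb1, H2-Oa, H2-Ob, Cd74, Ciita and Ctss. A probe set was taken when the platform annotation gave it exactly 1 gene symbol and that symbol was on the list, which yielded 17 of the 45037 probe sets that were not controls. They covered 9 of the 10 genes, because the probe sets of H2-DMb1 were annotated to more than 1 gene and were not used here. One group of 3 arrays came from bone marrow of adult mice aged 12 to 18 weeks and the other group of 3 from fetal liver at E13.5. All animals were C57BL/6 mice of the GATA1s genotype, in which the transcription factor GATA1 is made in a form that lacks its amino terminus, so no difference below separates GATA1s from full-length GATA1. Both groups were sorted for c-kit, CD150 and CD41 and against lineage markers and Sca-1. The samples are labelled biological replicates, without the number of animals in each, so the p-values cover only the variation among the samples themselves. The signal of each probe set is a linear MAS5 intensity, and all log2 fold changes are bone marrow minus fetal liver.

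MHC class II molecules are pairs of an alpha and a beta chain that carry peptides from the endosome to the cell surface and show them to CD4+ T cells. The invariant chain encoded by Cd74 fills the groove during assembly, endosomal proteases such as cathepsin S trim it, H2-DM exchanges the last fragment for a peptide, and H2-O restrains H2-DM. The transactivator CIITA does not bind DNA itself but docks on a set of factors assembled on the conserved X and Y boxes of these genes' promoters. Dendritic cells, B cells and macrophages are the best-known class II-positive blood cells.

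The shared promoter layout can be read in the sequences of the class II genes themselves. RefSeq promoter entries of build GRCm38.p6, which run from 250 bases before to 50 after a gene's start, were found for 7 of the 10 listed genes. The 4 stretches below are the 130 bases just upstream of the start, 5′ to 3′ on the strand of the gene, shown because they hold both boxes and their genes were all called higher in bone marrow. Capitals mark GNAAC, which lies in the X box, and ATTGG, the core of the Y box.
H2-Aa (chr17:34287824-34287953, minus strand): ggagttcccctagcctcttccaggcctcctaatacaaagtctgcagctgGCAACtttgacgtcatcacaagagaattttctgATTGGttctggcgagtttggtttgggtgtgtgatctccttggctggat
H2-Eb1 (chr17:34305737-34305866, plus strand): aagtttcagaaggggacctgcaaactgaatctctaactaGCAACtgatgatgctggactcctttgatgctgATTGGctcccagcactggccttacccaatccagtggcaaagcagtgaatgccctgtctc
H2-Oa (chr17:34092249-34092378, plus strand): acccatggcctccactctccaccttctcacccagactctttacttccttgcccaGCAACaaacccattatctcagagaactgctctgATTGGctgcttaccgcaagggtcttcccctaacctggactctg
H2-Ob (chr17:34238775-34238904, plus strand): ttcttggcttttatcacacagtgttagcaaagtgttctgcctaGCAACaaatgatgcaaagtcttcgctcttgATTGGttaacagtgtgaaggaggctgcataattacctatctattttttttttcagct
In these 4 stretches the first base of GNAAC lay 33 bases upstream of that of ATTGG in H2-Aa and H2-Oa, 32 in H2-Eb1 and 30 in H2-Ob. The search, whose letters and spacing were chosen after the sequences were seen, took GNAAC starting 25 to 40 bases before ATTGG on the strand of the gene. It found the pair in 5 of the 8 entries of listed genes, H2-DMb1 being the other gene, against 1.33% of all 32851 promoter entries. On either strand the share was 2.67%. A longer X box pattern and the cAMP response element were also searched and are not reported here, so the pair is not the only pattern tried. ATTGG alone, on either strand, was in 37.4% of all entries. Neither of the 2 entries of H2-DMa and not the entry of Ctss held the pair, though both genes were called higher in bone marrow. Outside the list, H2-DMb2 was called higher and did not hold the pair. H2-Eb2, named after its values were seen, held it at a spacing of 32, but its signals lay below the filter and overlapped between the tissues. A match of letters is a description and does not show that a factor binds there.

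Every listed gene that could be tested was higher in bone marrow progenitors than in fetal liver progenitors. The fit across all 27022 probe sets of sufficient mean signal, with limma and Benjamini-Hochberg adjustment at a threshold of 0.05, called 13 of the 13 tested class II probe sets higher in bone marrow, representing 8 genes. Over all tested probe sets 15.0% were called higher and 11.8% lower in bone marrow. The other 4 probe sets, 3 of Ciita and 1 of H2-Aa, lay below the signal filter. A probe set that is bright in 1 tissue only can pass such a filter through that tissue, so the count over tested probe sets describes them and no more. All 3 bone marrow arrays lay above all 3 fetal liver arrays for 15 of the 17 class II probe sets, as they did for 17.1% of all 45037 probe sets. The 2 class II probe sets that overlapped were both among the 4 below the filter. The median log2 fold change was 3.21 over the 17 class II probe sets and -0.0055 over all probe sets. A log2 fold change of 4 or more was reached by 7 of the 13 tested class II probe sets, and by 1.15% of all tested probe sets. In RNA from a sorted population, fewer class II-positive cells and less class II RNA per cell cannot be told apart.

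**Figure D1:**
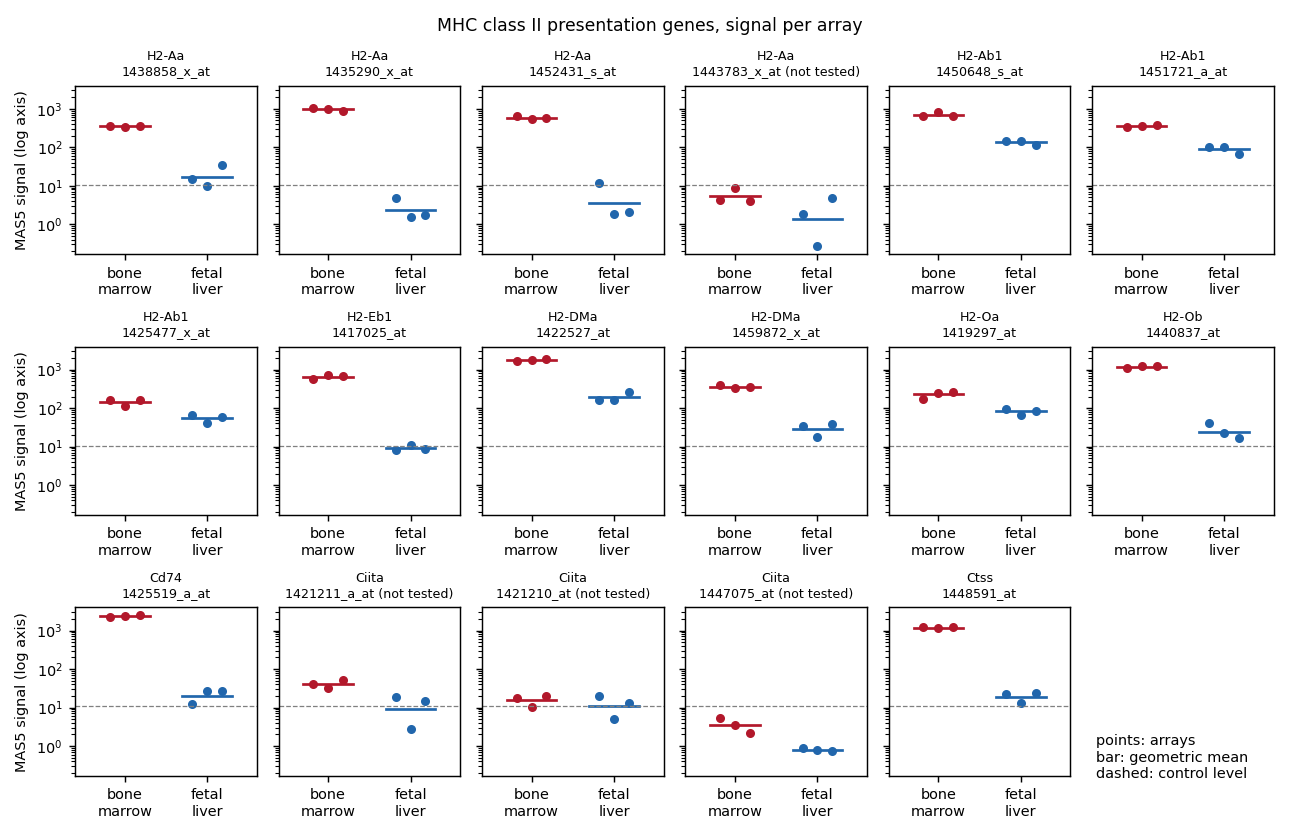
MAS5 signal (log axis) of each of the 17 class II probe sets, with 1 point per array, bone marrow left and fetal liver right, the geometric mean as a bar and the control level of 10.6 dashed. The groups overlap only for 1443783_x_at of H2-Aa and 1421210_at of Ciita; H2-Ab1, H2-DMa, H2-Oa, H2-Ob, Cd74 and Ctss stay above the control level on every fetal liver array.

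H2-Aa and H2-Ab1 encode the alpha and beta chains of the I-A molecule. The H2-Aa probe set with the highest mean (1438858_x_at) had signals of 347, 332 and 363 on the bone marrow arrays, against 15.0, 9.91 and 35.2 on the fetal liver arrays. The lowest bone marrow signal was 9.43 times the highest fetal liver signal, and the log2 fold change was 4.32 ± 0.41 (SE, limma adjusted p = 5.43e-05). A level below which a signal was not distinguished from background was set at 10.6, the 95th percentile of 27 bacterial control probe sets that had not been spiked. Fetal liver replicate 2 lay under it for this probe set. The other H2-Aa probe sets gave a wider difference. 1435290_x_at had signals of 1071, 995 and 899 in bone marrow, against 4.78, 1.52 and 1.75 in fetal liver, all 3 of the last under the control level, which puts bone marrow at least 92.7-fold above (adjusted p = 1.09e-06). For 1452431_s_at bone marrow was at least 53.3-fold above fetal liver, where 2 of 3 arrays were under the control level (adjusted p = 2.51e-05). The fourth, 1443783_x_at, was under the control level on all 6 arrays and carries no fold.

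H2-Ab1 differed less, and its probe sets were above the control level on every fetal liver array. Its brightest probe set (1450648_s_at) had signals of 632, 835 and 664 in bone marrow, against 145, 143 and 117 in fetal liver. The groups did not overlap, and the log2 fold change was 2.39 ± 0.18 (adjusted p = 1.05e-05). The other H2-Ab1 probe sets gave 1.998 ± 0.21 (1451721_a_at, adjusted p = 1.14e-04) and 1.42 ± 0.27 (1425477_x_at, adjusted p = 0.00370). All 3 H2-Ab1 probe sets thus lay between 1.42 and 2.39, below the 4.32 of the brightest H2-Aa probe set and below the bounds of the other tested H2-Aa probe sets. The log2 ratio of H2-Aa over H2-Ab1, on the brightest probe set of each, averaged -1.02 ± 0.27 on the bone marrow arrays (SD, n = 3). It averaged -2.95 ± 1.10 on the fetal liver arrays, a difference of 1.93 between the tissues (2-sided exact permutation p = 0.1, the smallest that 3 against 3 arrays can give). The pair was chosen after the values were seen. The H2-Aa probe set used, brightest by its mean log2 signal over all 6 arrays, was the dimmest tested one in bone marrow (mean 348 against 989 and 593). With the other tested H2-Aa probe sets, whose differences were wider, the ratio was not computed, so its size depends on this choice. Suffixes _x_at and _s_at mark probe sets that may detect related transcripts, and whether the fetal liver signal of H2-Ab1 came from a related transcript was not tested.

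H2-Eb1 encodes the beta chain of the I-E molecule. Its single probe set had signals of 573, 722 and 680 in bone marrow, against 8.10, 11.1 and 8.56 in fetal liver. Only fetal liver replicate 2 was above the control level, and bone marrow was at least 60.8-fold higher (adjusted p = 4.07e-07). The b haplotype of C57BL/6 mice makes no I-E alpha chain, so this beta chain has no regular partner in the strain. The probe set of the alpha chain gene, H2-Ea, read 2.72, 0.450 and 1.53 in bone marrow and 1.09, 7.19 and 6.21 in fetal liver, all under the control level.

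Cd74, the invariant chain, was bright in bone marrow and low, though above the control level, in fetal liver. Signals were 2290, 2338 and 2518 in bone marrow, against 12.0, 26.6 and 26.9 in fetal liver. The lowest bone marrow signal was 85.2 times the highest fetal liver signal, and the log2 fold change was 6.86 ± 0.29 (adjusted p = 5.70e-07). The bone marrow arrays lay close together, at 2382 ± 120, while fetal liver replicate 1, at 12.0, lay apart from the other fetal liver arrays. Ctss, the cathepsin that makes the last cuts in the invariant chain, had signals of 1229, 1136 and 1206 in bone marrow, against 21.9, 12.9 and 24.3 in fetal liver. Its log2 fold change was 5.97 ± 0.25 (adjusted p = 5.70e-07), again with no overlap. The 130 bases upstream of its start are shown because they hold a different motif, the interferon-stimulated response element, searched as GAAA, any 2 bases and GAAA, in capitals.
Ctss (chr3:95526656-95526785, plus strand): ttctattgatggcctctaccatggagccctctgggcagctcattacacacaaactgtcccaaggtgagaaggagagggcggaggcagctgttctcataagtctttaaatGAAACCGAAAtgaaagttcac
That motif began 21 bases upstream of the Ctss start. It was found, on either strand, in 3.44% of all promoter entries and in no entry of the other listed genes that had one.

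H2-DMa encodes the alpha chain of H2-DM, the peptide exchanger. Its brightest probe set (1422527_at) had signals of 1658, 1823 and 1854 in bone marrow, against 166, 165 and 258 in fetal liver. The difference was 9.26-fold (log2 fold change 3.21 ± 0.18, adjusted p = 2.46e-06), and fetal liver signals stayed well above the control level. The dimmer probe set (1459872_x_at) gave 3.67 ± 0.30 (adjusted p = 2.18e-05).

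H2-Oa and H2-Ob encode the alpha and beta chains of H2-O, the inhibitor of H2-DM, and differed from each other. H2-Ob (1440837_at) had signals of 1119, 1212 and 1238 in bone marrow, against 40.8, 21.96 and 16.8 in fetal liver. Its log2 fold change was 5.59 ± 0.30 (adjusted p = 1.57e-06), a 48.1-fold difference. H2-Oa had signals of 172, 253 and 269 in bone marrow, against 97.1, 65.7 and 86.5 in fetal liver. It was the smallest called change among the brightest probe sets, at 1.47 ± 0.25 (adjusted p = 0.00187), and the lowest bone marrow array was 1.78 times the highest fetal liver array. The log2 ratio of H2-Ob over H2-Oa was 2.70, 2.26 and 2.20 on the bone marrow arrays and -1.25, -1.58 and -2.36 on the fetal liver arrays, a difference of 4.12 (2-sided exact permutation p = 0.1, the smallest possible). Of 3 such ratios computed, chosen after the values were seen, the last set Cd74 against H2-DMa and differed by 3.65 (exact permutation p = 0.1). For pairs chosen in this way a p of 0.1, the smallest possible, gives no support for a difference. The 3 ratios are therefore descriptions only. The level of a ratio between probe sets depends on the probes, so only its difference between the tissues is read here. Both promoters carry the X and Y letters printed above.

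Ciita, the transactivator of the class II genes, was dim in both tissues. Its brightest probe set (1421211_a_at) had signals of 41.5, 32.2 and 50.5 in bone marrow, against 19.2, 2.85 and 15.1 in fetal liver. The groups did not overlap, but the mean signal lay below the filter and the probe set was not tested. With fetal liver signals below the control level set to it, bone marrow was at least 2.79-fold above fetal liver on this probe set. In the fit without the filter the difference was not called (limma adjusted p = 0.0711), while 9.59% of all probe sets were called higher in that fit. Of the other probe sets, 1421210_at overlapped between the tissues, at 17.8, 10.5 and 19.6 in bone marrow and 20.1, 5.07 and 13.47 in fetal liver. 1447075_at was under the control level on all 6 arrays. None of the 3 Ciita probe sets was called in the fit without the filter.

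**Figure D2:**
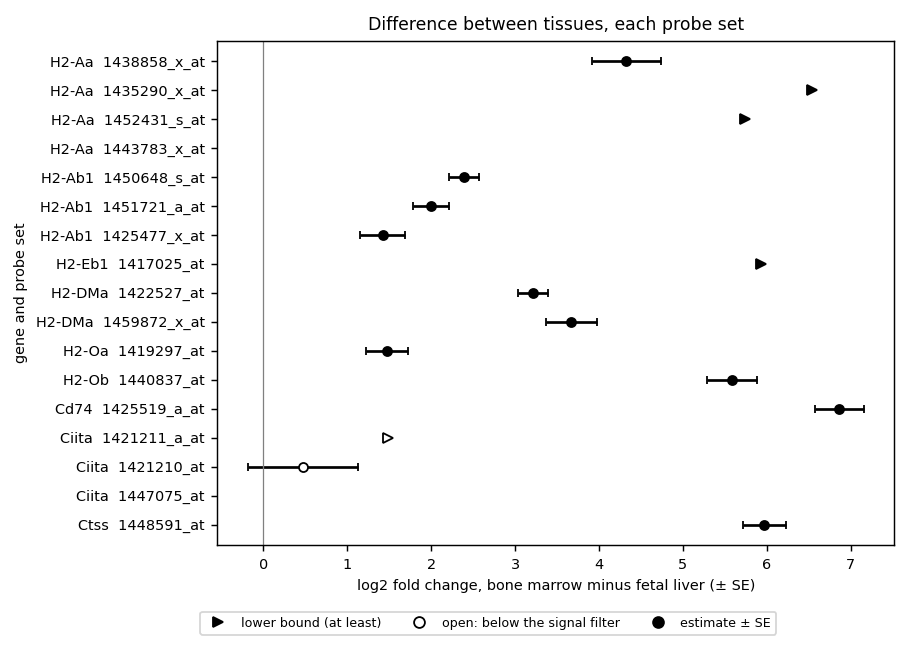
Log2 fold change, bone marrow minus fetal liver, of each class II probe set: circles are estimates with their SE, triangles are lower bounds where the geometric mean of the fetal liver signals was below the control level, and open symbols lay below the signal filter. Estimates of tested probe sets run from 1.42 for an H2-Ab1 probe set to 6.86 for Cd74, and the 2 probe sets under the control level on all 6 arrays have no symbol.

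The wider pathway did not share the uniform direction of the class II genes. Of 59 other genes tested in 6 lists, 22 were higher in bone marrow, 5 lower and 32 were not called, taking the brightest probe set of each. Over all named genes taken the same way, 17.3% were called higher and 15.9% lower. Direction for small changes depended on scaling: centring each array on its median moved the median of all tested probe sets by -0.34 and left 15 of these genes higher and 13 lower.

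Among 14 factors that assemble on class II promoters or act on Ciita, 3 were higher, 1 lower and 10 not called, with a median log2 fold change of 0.13. Rfx5, the DNA-binding part of the X-box complex, had signals of 2523, 2773 and 2583 in bone marrow, against 1930, 1438 and 1280 in fetal liver (0.78 ± 0.14 on the log2 scale, adjusted p = 0.00316; 0.0661 without variance moderation). Its partner Rfxank went the other way, at -0.62 ± 0.16 (adjusted p = 0.0182), the only call among its 3 tested probe sets, which ranged up to -0.15. That call was lost without bone marrow replicate 2 (adjusted p = 0.0655), fetal liver replicate 2 (0.0559) or fetal liver replicate 3 (0.0777). Rfxap, the other subunit, was at 0.08 ± 0.13 (adjusted p = 0.712), and the 3 subunits of the Y-box factor NF-Y, Nfya, Nfyb and Nfyc, were not called either, at 0.14, -0.04 and -0.12. The mean signals of these 6 promoter-binding subunits lay between 449 and 4319 in bone marrow and between 687 and 3945 in fetal liver. Spi1, the myeloid and B-cell factor PU.1, rose by 0.76 ± 0.16 (adjusted p = 0.00683; 0.0732 under median centring). Irf4, a factor of lymphocytes and dendritic cells, had the largest change of the list, with signals of 864, 963 and 1205 in bone marrow against 18.1, 2.06 and 5.32 in fetal liver. That was at least 78.9-fold higher in bone marrow (adjusted p = 2.56e-05; 2 of 3 fetal liver arrays under the control level).

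Of 8 tested genes on the interferon gamma route to Ciita, 3 were higher and none lower, with a median of 0.25. Irf1, which acts on a Ciita promoter, had signals of 1296, 1175 and 1248 in bone marrow, against 289, 257 and 291 in fetal liver (2.15 ± 0.13, adjusted p = 2.84e-06). Nlrc5, the class I counterpart of Ciita, was at 6.92 ± 0.38 (adjusted p = 2.03e-06), with 1 of 3 fetal liver arrays under the control level. Irf2 was at 0.55 ± 0.11 (adjusted p = 0.00542), a call lost under median centring (0.153). The receptor chains and kinases were not called: Ifngr1 was at 0.23, Ifngr2 at 0.18, Jak1 at 0.27 and Jak2 at 0.13. For Jak1 2 of 3 tested probe sets were called higher, and median centring turned the sign of the brightest (-0.067).

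Of 15 tested endosomal proteases and processing genes, 4 were higher, 2 lower and 9 not called. Ctsh, an aminopeptidase of the endosome, read 380, 463 and 462 in bone marrow, against 3.60, 8.50 and 4.72 in fetal liver, all under the control level, so bone marrow was at least 40.7-fold higher (adjusted p = 2.06e-06). Ifi30, the endosomal thiol reductase, and Ctsb moved by small amounts, 0.64 ± 0.09 (adjusted p = 8.47e-04) and 0.60 ± 0.09 (adjusted p = 0.00103). Both calls were lost under median centring (0.0818 and 0.113). Ctsl, which trims the invariant chain in thymic epithelium, was not called, at 0.22 ± 0.14 (adjusted p = 0.296). Ap1s1, a subunit of a sorting adaptor, was lower in bone marrow (-0.53 ± 0.10, adjusted p = 0.00393). Ctse has no settled direction, since its 2 tested probe sets were called in opposite directions, at -0.84 and 3.77.

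Among the remaining class II and surface turnover genes, 3 of 7 were higher. H2-DMb2, a second DM beta chain, read 242, 519 and 439 in bone marrow, against 22.6, 21.6 and 27.7 in fetal liver (3.998 ± 0.30, adjusted p = 1.29e-05). Marchf1 encodes the ubiquitin ligase that removes class II from the surface; bone marrow exceeded fetal liver, with 2 of 3 arrays under the control level there, by at least 11.9-fold (adjusted p = 4.39e-04). Its relative Marchf8 was not called, at -0.22 ± 0.23 (adjusted p = 0.512). The tetraspanin Cd82 was at 3.49 ± 0.37 (adjusted p = 1.14e-04). Its bone marrow signals were uneven, at 294, 731 and 812, against 66.8, 45.9 and 40.2 in fetal liver, with replicate 1 lowest in bone marrow. Flot1, a raft protein, was at -0.31 ± 0.11 (adjusted p = 0.0728).

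Of 10 tested costimulation genes 7 were higher and 1 lower. Icosl, the ligand of ICOS on T cells, was at 4.46 ± 0.32 (adjusted p = 9.87e-06), Tnfrsf14 at 1.999 ± 0.24 (adjusted p = 2.68e-04), Cd48 at 0.89 ± 0.13 (adjusted p = 8.75e-04) and the adhesion molecule Icam1 at 1.40 ± 0.24 (adjusted p = 0.00209; 0.0530 without variance moderation). The exception, Cd80, was named after its value was seen: it read 13.1, 21.4 and 8.87 in bone marrow and 36.5, 45.0 and 38.1 in fetal liver (-1.55 ± 0.41, adjusted p = 0.0206), with 1 bone marrow array under the control level and the call lost in the fit without the signal filter (adjusted p = 0.0508). Its partner Cd86 was not called, at 0.98 (adjusted p = 0.121; likewise named afterwards). The Cd74 surface partners Cxcr4 and Cd44 were at 2.64 ± 0.11 (adjusted p = 6.04e-07) and 0.46 ± 0.11 (adjusted p = 0.0124; 0.407 under median centring). Mif, the cytokine that binds CD74, was lower in bone marrow by a small amount (-0.42 ± 0.13, adjusted p = 0.0432), a call lost without any 1 of 5 arrays, at adjusted p = 0.0595 to 0.136. Cxcr2 was not called (1.99 ± 0.77, adjusted p = 0.0849), and passed the threshold without bone marrow replicate 1 (0.0119) or fetal liver replicate 1 (0.0389).

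**Figure D3:**
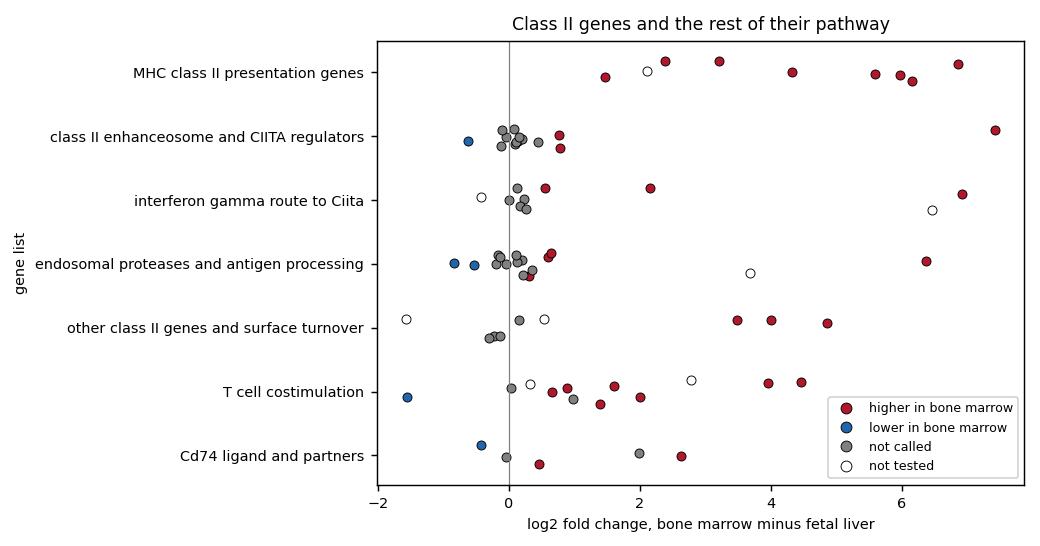
Log2 fold change, bone marrow minus fetal liver, of the brightest probe set of each gene, for the class II genes and the 6 other lists; colours give the call. All 8 tested class II genes lie above 1, whereas in the regulator and protease lists 10 of 14 and 9 of 15 were not called. Points whose fetal liver geometric mean was below the control level are fitted values, not sizes.

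The genes whose profile over the 6 arrays was most like that of the class II genes were Esr1, Il1r2, Igsf6, Ms4a4c and Gpc1, among 11636 genes compared. Likeness was the Euclidean distance, in log2 units, from the mean centred profile of H2-Aa, H2-Ab1, H2-Eb1 and Cd74, and it ranged from 0.295 for Esr1 to 0.707 for Gpc1. Esr1, the estrogen receptor alpha, read 288, 340 and 288 in bone marrow, against 7.35, 11.2 and 11.9 in fetal liver, so it was at least 27.1-fold higher. Igsf6, a membrane protein of the immunoglobulin superfamily, read 712, 1191 and 1255 in bone marrow, against 29.1, 44.5 and 39.9 in fetal liver (log2 fold change 4.78). The 6 arrays span only 2 tissues, so likeness of profile and a like tissue difference cannot be told apart.

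Markers of class II-bearing cells mostly moved in the same direction as the class II genes. So did markers of granulocytes, of mast cells and basophils (5 of 6 tested higher in bone marrow) and of stem and early progenitors (6 of 8). Over all named genes, each taken by its brightest probe set, 17.3% were called higher. Of 10 tested B cell markers 9 were higher in bone marrow, and their summed signal over 13 genes was 9029 to 12598 in bone marrow and 5179 to 5590 in fetal liver. The 3 brightest were Cd24a (log2 fold change 0.87 ± 0.11, adjusted p = 4.07e-04), Cd79b (0.23 ± 0.12, not called, adjusted p = 0.204) and Vpreb1 (1.94 ± 0.26, adjusted p = 5.14e-04). Ebf1, a factor that specifies the B cell lineage, was at 5.24, Igll1 at 3.86, Blk at 3.03 and Fcrla at 2.09, all called. Cd79a, a chain of the B cell receptor complex, was at least 33.8-fold higher, Ms4a1 (CD20) at least 28.3-fold and Vpreb3 at least 15.0-fold, all called. Blnk and Cd22 lay below the signal filter, with bone marrow at least 16.1-fold and at least 5.05-fold above fetal liver. The brightest probe set of Pax5, another B cell factor, was under the control level on all 6 arrays. Of 8 tested dendritic cell markers 6 were higher and 1, Zbtb46, lower (-1.08 ± 0.32, adjusted p = 0.0321), with sums over 13 genes of 4992 to 5824 in bone marrow and 3738 to 4294 in fetal liver. Tcf4 and Ly6d, the other bright members, were at 0.32 and 4.57. For Tcf4 only 1 of 5 tested probe sets was called, with a range of 0.31 to 0.52. Ly6d read 257, 498 and 471 in bone marrow, lowest on replicate 1. Flt3 was at 2.36 and Siglech, a marker of plasmacytoid dendritic cells, at 1.59, both called, and Ccr9 was not called. Clec10a was at least 6.90-fold higher and Klrd1 at least 8.20-fold, both called. Itgax (CD11c) and Ccr7 lay below the signal filter, with bone marrow at least 9.19-fold and at least 13.6-fold above fetal liver. Xcr1 and Cd209a were under the control level on all 6 arrays, and Batf3 on 2 of 3 bone marrow and all 3 fetal liver arrays. Of 11 tested monocyte and macrophage markers 10 were higher, with sums over 14 genes of 6466 to 8573 in bone marrow and 1950 to 3974 in fetal liver. Csf1r was at 3.48 ± 0.35, Cd68 at 1.54 ± 0.20 and F13a1, also a platelet gene, at -0.06 (adjusted p = 0.891). All 11 granulocyte markers were higher, with sums of 53027 to 68136 in bone marrow and 4415 to 6251 in fetal liver. These sums mostly reflect their brightest genes and do not measure a lineage. On fetal liver replicate 1, Cd24a (4238) and Cd79b (1121) made up most of the B cell sum, and Tcf4 (3599) most of the dendritic cell sum. On fetal liver replicate 3, F13a1 (3549) made up most of the monocyte and macrophage sum. The B cell and dendritic cell markers beyond the 3 brightest of each list were named after their values were seen, so that every measured member is accounted for.

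Markers of the labelled cell type were bright in both tissues. Over 11 megakaryocyte progenitor genes the sums were 34853 to 37928 in bone marrow and 28074 to 41668 in fetal liver. Of them 2 were higher, 2 lower and 7 not called, Itga2b (CD41) at -0.01, Pf4 at 0.16 and Itgb3 at -0.40 among the last. The called genes were Selp at 3.25 and Kit, a gene of the sort, at 0.62, and Gata1 at -0.49 and Gp9 at -1.23.

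Within bone marrow, replicate 1 differed from the other arrays in several lineage lists. On bone marrow replicate 1 the median B cell marker deviated from the other bone marrow arrays by -0.92 on the log2 scale, with 12 of 13 genes lower, and the median erythroid marker by -1.40. On the same array the median monocyte and macrophage marker lay above by 0.46, in 14 of 14 genes. The median class II gene lay at -0.13 there, with 2 of 9 genes above, at 0.04 on replicate 2, with 5 of 9 above, and at 0.09 on replicate 3, with 8 of 9 above. On replicates 2 and 3 the B cell markers were at 0.44 and 0.48, so the class II genes and the B cell markers had the same sign on each bone marrow array. That pattern of signs was not particular to B cell markers. The granulocyte markers were at -0.34, 0.17 and 0.22 on the 3 arrays and the erythroid markers at -1.40, 0.57 and 0.48. Mast cell and basophil markers were at -0.40, 0.17 and 0.11. The dendritic cell markers were at -0.14, -0.14 and 0.31 on the 3 arrays. In fetal liver the class II deviations were 0.17, -0.32 and 0.53 on replicates 1, 2 and 3, and those of the dendritic cell markers were 0.10, -0.52 and 0.42. Those of the B cell markers were 0.05, -0.11 and 0.11 there. The same signs were seen for the costimulation genes (0.29, -0.24 and 0.01) and the Cd74 ligand and partners (0.11, -0.32 and 0.18). Granulocyte markers were at -0.07, 0.52 and -0.41, and monocyte and macrophage markers at 0.06, -0.07 and -0.07. On all 3 fetal liver arrays 5 of 13 dendritic cell markers and 4 of 13 B cell markers were under the control level, where deviations are unreliable. These are descriptions over 3 arrays of a tissue. The part of other cell types in the class II difference was not tested. Without bone marrow replicate 1 all 13 class II probe sets were still called, as they were without any other single array.

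**Figure D4:**
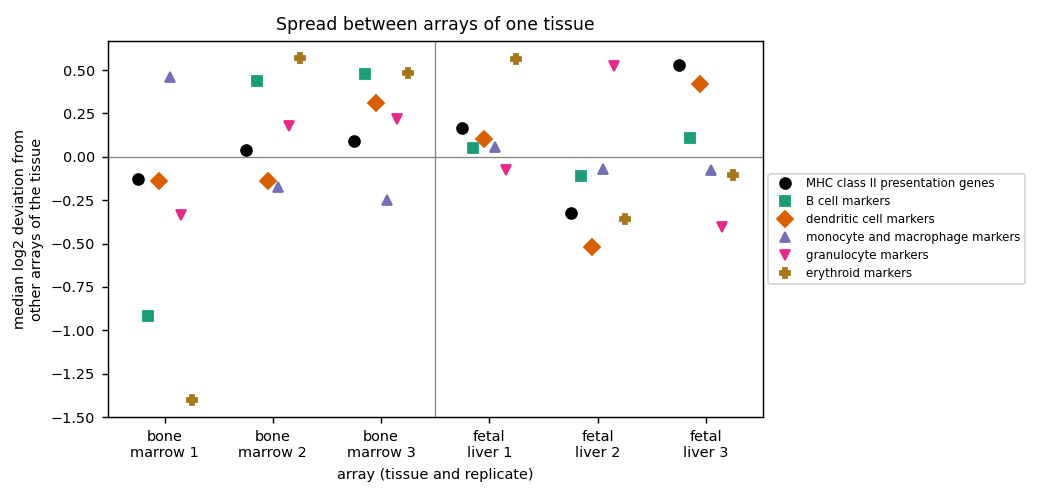
Median log2 deviation of each gene list on each array from the mean of the other arrays of its tissue, for the class II genes and 5 lineage marker lists. On bone marrow replicate 1 the B cell (-0.92) and erythroid (-1.40) markers are low and the monocyte markers (0.46) high, while the class II genes sit at -0.13.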

How the data were processed

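Signals for 45101 probe sets on 6 arrays were used. The deposited values are linear intensities that the authors computed with MAS5 (per the submitters' processing notes, with no version given). The trimmed mean (2% off each end) was 500 on every array, as measured, and the median signal was 65.9 to 74.6 in bone marrow and 52.0 to 59.1 in fetal liver. The number of arrays limits the precision. MAS5 adds no offset, so low signals spread widely on a log scale. Of 45037 probe sets that were not controls, 34945 had 1 symbol in the platform annotation, 932 several and 9160 none; probe sets with several or none named no gene. Of the 180 list memberships, 164 were matched; the others were not analysed here.

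Signals were log2-transformed. Probe sets with a mean above the 40th percentile (a signal of 22.9) entered limma (version 3.58.1, R 4.3.3) with tissue as the only term, a trended variance prior and Benjamini-Hochberg adjustment over all 27022. The fit was checked on simulated data. Fold bounds set each signal below the control level of 10.6 to it. Genes in lists were taken by the probe set with the highest mean over all probe sets. Named were all listed class II genes, up to 4 genes per pathway list with the smallest adjusted p, subunits of the same complex, receptors and kinases beside them, the 3 brightest members of the B cell, dendritic cell, monocyte and megakaryocyte lists, and the 5 nearest profiles, passing over clone and model names. Further B cell, dendritic cell and megakaryocyte progenitor markers, and H2-Eb2, were named after their values were seen. The same holds for H2-Ea, Ctsl, Ap1s1, Marchf8, Cd80, Cd86, Cd274, Lag3 and Cd28. The genes and lists were chosen with earlier results of these data known. Other marker lists gave 5 higher of 6 tested (mast cell and basophil), 2 higher and 1 lower of 5 (erythroid), 1 higher and 1 lower of 3 (hepatoblast) and 6 higher of 8 (stem and early progenitor). Alternatives were other filters, normalizations, offsets, probe set rules and variance models, a replicate block, a floor at the control level and leaving out each array. Python 3.11.15 was used with numpy 2.4.6, pandas 2.3.3 and, for plots, matplotlib 3.10.9.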

Additional observations from a re-analysis of the deposited data

How the results depend on the processing

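Under 17 alternatives the 8 tested class II genes kept their direction and their side of the threshold in all 133 values computed, with no result for H2-Aa, H2-Eb1 and H2-Oa under the filter at the 60th percentile, which dropped them. Ranges were 3.79 to 6.80 for H2-Aa, 1.13 to 1.67 for H2-Oa and 6.39 to 7.05 for Cd74, with a highest adjusted p of 0.0407, for H2-Oa without variance moderation. The class II probe sets called numbered 13 except with the stricter filter (6) and 1 value per gene (8 with the brightest probe set, 8 with the mean), where fewer were tested. Leaving out single arrays gave 13 to 13 class II probe sets, 2810 to 4372 higher and 1800 to 3389 lower over all probe sets, the low end of the last without bone marrow replicate 3 (1800) and fetal liver replicate 3 (1865), and 20 to 25 higher and 2 to 6 lower among the other pathway genes (3 lower without bone marrow replicate 2 or 3, 2 without fetal liver replicate 2 or 3). Over all probe sets 4048 were higher and 3189 lower in bone marrow; this became 2667 and 9848 under median centring, 3438 and 4279 under quantile normalization, 2228 and 1704 without moderation, 2134 and 2074 with 1 probe set per gene, 2221 and 1980 with probe sets averaged per gene, and 2428 higher with the stricter filter. Other pathway genes, 22 higher and 5 lower, became 14 higher with the stricter filter, 14 and 2 without moderation, 3 lower with no filter and 13 lower under median centring. Without variance moderation calls were also lost for Rfx5 (0.0661), Rfxank (0.0875), Irf2 (0.0570), Icam1 (0.0530), Cd44 (0.0951) and Mif (0.198). Flot1 was called lower under median centring (0.00671) and with its probe sets averaged (0.0417). Jak1 reversed under median centring (-0.067) and Ctse when its probe sets were averaged (1.47). The replicate numbers did not pair the samples (same-number correlations of deviations 0.0013, 0.11 and -0.16), and with the replicate block 13 class II probe sets, 3974 higher and 2930 lower over all were called. The cause of the changes not given to fewer probe sets tested was not tested. Signals near the control level limit Ciita and the fetal liver values of H2-Aa and H2-Eb1.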
